A study of Mus musculus with 18 samples.

Results

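The 10 genes described here mark hepatic stellate cells or report on their activation: Lrat, Reln, Ecm1, Des, Pdgfrb, Acta2, Tagln, Timp1, Tgfb1 and Lum. They were taken by symbol from the 40840 genes counted in the livers of the study, and all 10 had enough reads to be tested in both mouse models. The diet-induced obesity (DIO) mice were wild-type female C57BL/6 mice on a high-fat diet, and the ob/ob mice were leptin-deficient females of the C57BL/6 background on a normal diet. All mice of both models, vehicle groups included, had been ovariectomized (OVX). Each model had a vehicle group, a group given 17β-estradiol (E2) at 5 µg per kg per day and a group given PaPE-1, named PaPE in the sample labels, at 300 µg per kg per day, through a minipump for 6 weeks. PaPE-1 is a synthetic estrogen with a rearranged steroid core that binds estrogen receptor α weakly. The age of the mice is not given in the sources used here. There were 3 liver RNA libraries in each of the 6 groups and 18 in all, with 16651616 to 21703791 counted reads in the DIO libraries and 10470665 to 17021370 in the ob/ob libraries.

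Hepatic stellate cells lie between hepatocytes and the sinusoidal endothelium, where they store vitamin A as retinyl esters. On liver injury they lose this store, take on a contractile myofibroblast character and secrete collagen and other matrix, with TGF-β and PDGF among the signals that drive the change. Lrat, Reln and Ecm1 were grouped as markers of the quiescent state, Acta2, Tagln, Timp1 and Lum as activation genes, and Des, Pdgfrb and Tgfb1 stood outside this contrast. Since the RNA came from whole liver, fewer cells of a type and less RNA per cell cannot be told apart.

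Promoter sequences are shown for Acta2, which had the largest fold change among the genes with groups apart in DIO, and for Ecm1, the only member called by its adjusted p in the main edgeR fit. The sequences are those of RefSeq on GRCm38.p6, 5′ to 3′ on the strand of the gene, with 250 bases before the start of the gene among 300. Of the 10 genes, 7 had an entry; Tagln, Lum and Pdgfrb had none. The capitals in Acta2 (chr19:34255324-34255623, minus strand) mark CArG boxes, the site of serum response factor in smooth muscle genes, read here with at most 1 guanine or cytosine among the inner 6 bases. The capitals in Ecm1 (chr3:95739520-95739819, minus strand) mark TGAGTCA, a site of the AP-1 factors, and TATAAA, the basal promoter element of many genes.
Acta2: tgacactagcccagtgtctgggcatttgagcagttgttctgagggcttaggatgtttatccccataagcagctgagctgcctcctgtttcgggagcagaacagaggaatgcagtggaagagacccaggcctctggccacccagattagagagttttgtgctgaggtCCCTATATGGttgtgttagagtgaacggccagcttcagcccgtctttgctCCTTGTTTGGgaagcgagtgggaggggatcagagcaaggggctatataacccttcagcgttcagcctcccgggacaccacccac
Ecm1: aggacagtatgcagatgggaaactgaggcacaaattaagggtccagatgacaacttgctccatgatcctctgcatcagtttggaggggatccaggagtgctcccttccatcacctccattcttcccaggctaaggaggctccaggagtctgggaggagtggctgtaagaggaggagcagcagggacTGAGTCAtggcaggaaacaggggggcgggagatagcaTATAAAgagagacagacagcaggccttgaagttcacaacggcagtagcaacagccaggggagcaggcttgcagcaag
The CArG boxes of Acta2 began at -84 and -34 from the start, and 9.98% of the 32851 promoters in the RefSeq set held at least 1 such box. Among the members, 2 promoters held one, those of Acta2 and Lrat. The AP-1 site of Ecm1 began at -64 and its basal element at -27. These letters, searched on both strands, were in 5.2% and 13.6% of all promoters, and in no other member's promoter. The Smad element CAGACA, searched on both strands, was in the promoters of 3 members, Ecm1, Des and Acta2, and in 21% of all promoters. Such a match describes letters and says nothing of binding in these livers.

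Levels are given as CPM, the count of a gene relative to the size of its library, which was scaled by the TMM method within a model. Per kilobase of exon, and as a mean over the 18 libraries, Ecm1 was at 80.9 CPM per kb and its lowest library (50.6) lay above the highest library of any other member. The next levels were those of Tagln (7.04 CPM per kb), Tgfb1 (6.50), Lrat (6.27), Lum (5.13) and Reln (3.93), followed by Pdgfrb (2.32), Des (2.27), Acta2 (1.69) and Timp1 (1.28). From Tagln downward, the ranges of neighbours in this order overlapped. Ecm1, extracellular matrix protein 1, is also known to be made by hepatocytes. The stellate cell markers of the label were present, with none of the 10 genes of a stellate cell marker list at 0 in any library. That list includes Lrat, Reln, Ecm1, Des and Pdgfrb, and Ecm1 alone was at 101 to 274 CPM. In DIO the list summed to 301 to 317 CPM with vehicle, 320 to 357 with E2 and 338 to 352 with PaPE-1. In ob/ob the sums were 335 to 434 CPM with vehicle, 503 to 575 with E2 and 293 to 415 with PaPE-1.

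**Figure D1:**
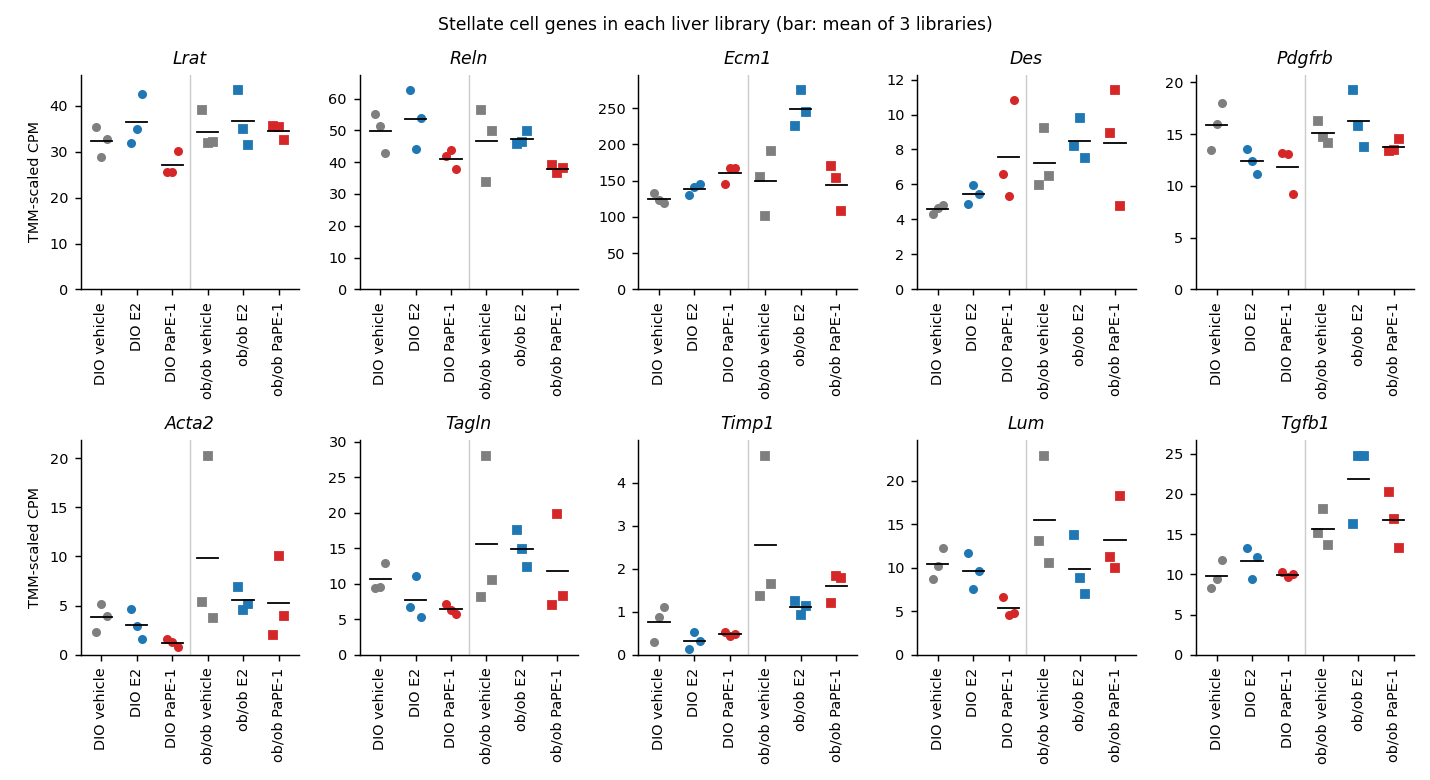
Each panel plots 1 gene, with TMM-scaled CPM on a linear axis from 0 and the 6 groups along the bottom; points are libraries and black bars are means of 3 libraries. In DIO the 3 PaPE-1 libraries lie below the 3 vehicle libraries for Acta2, Tagln, Lum and Pdgfrb, and in ob/ob 1 vehicle library is the highest library for Acta2, Tagln, Timp1 and Lum.

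The first question was whether the stellate cell genes differed between PaPE-1 and vehicle in DIO livers. Acta2, Tagln, Lum and Pdgfrb were lower and Ecm1 and Des higher in every PaPE-1 library than in any vehicle library, while Lrat, Reln, Timp1 and Tgfb1 overlapped. No member passed an adjusted p of 0.05 in the edgeR quasi-likelihood test, in which 0% of the 13884 genes tested were called higher and 0% lower. Before adjustment, at p under 0.05, 2 members were higher, against 11.4% of all genes tested, and 4 were lower, against 9.68%. Groups did not overlap for 16.4% of all genes in the higher direction and for 15.8% in the lower. With DESeq2 on the same genes, 2 members (Acta2 and Lum) passed the adjusted threshold, among 752 genes, and with limma voom 0 did. In the edgeR fit of the vehicle and PaPE-1 libraries alone, Acta2, Tagln and Lum passed it, among 773 of 13604 genes.

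Acta2, which encodes the smooth muscle α-actin of myofibroblasts (GRCm39 chr19:34217736-34232985, 10 exons), was at 1.61, 1.26 and 0.81 CPM in the PaPE-1 libraries and at 2.30, 5.15 and 3.98 CPM in the vehicle libraries. All PaPE-1 libraries were low, and the lowest vehicle library was WV7. The log2 fold change was -1.62 (SE 0.42, edgeR adjusted p = 0.0849, n = 3 and 3), which is 0.325 of the vehicle level. The counts behind this were 12 to 27 reads in PaPE-1 and 48 to 118 in vehicle. Adjusted p ranged from 0.0389 to 0.272 when each DIO library was left out in turn.

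Lum, the gene of lumican, a small leucine-rich proteoglycan that binds collagen fibrils (chr10:97401363-97408565, 3 exons), was at 6.69, 4.52 and 4.80 CPM with PaPE-1 and at 8.76, 10.2 and 12.3 CPM with vehicle. All PaPE-1 libraries were under all vehicle libraries, with a gap smaller than the range of the vehicle group. Its log2 fold change was -0.96 (SE 0.22, edgeR adjusted p = 0.0714). Tagln, an actin-binding protein of smooth muscle and myofibroblasts (chr9:45840926-45847356, 5 exons), was at 7.16, 6.37 and 5.67 CPM with PaPE-1 and at 9.38, 9.61 and 12.9 CPM with vehicle. The 3 PaPE-1 libraries lay close together and below all 3 of vehicle, with a log2 fold change of -0.73 (SE 0.25, edgeR adjusted p = 0.139). An exon of Tagln overlaps Pcsk7 on the opposite strand, and the deposited counting used strand.

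Timp1, an inhibitor of matrix metalloproteinases (chrX:20736405-20740976, 6 exons), was the activation gene with the fewest reads, 7 to 9 in the PaPE-1 libraries and 6 to 23 in vehicle. Its levels of 0.537, 0.438 and 0.473 CPM lay within the vehicle range of 0.287 to 1.12 CPM. The interval of the log2 fold change, -1.81 to 0.50, held both no difference and a large one, so neither was shown.

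Among the quiescence markers, Lrat, the enzyme that esterifies retinol for storage (chr3:82799889-82811281, 2 exons), was at 25.7, 25.6 and 30.2 CPM with PaPE-1 and at 35.4, 28.9 and 32.8 CPM with vehicle. The groups overlapped at WP24 and WV8, and the log2 fold change was -0.25 (95% interval -0.57 to 0.07). Reln, the secreted glycoprotein reelin (chr5:22089452-22549703, 65 exons), overlapped as well, at 41.8, 43.8 and 37.8 CPM with PaPE-1 against 55.1, 51.3 and 43.0 CPM. Its log2 fold change was -0.28 (95% interval -0.61 to 0.05). Ecm1 (chr3:95641459-95646915, 11 exons) stood the other way, at 146, 167 and 168 CPM with PaPE-1 against 133, 123 and 120 CPM with vehicle. No library of either group crossed into the other, and the difference was 0.36 on the log2 scale (SE 0.13, edgeR adjusted p = 0.146). With each library's trend on gene length removed, Lrat was at -0.06 and Reln, the longest member, turned to 0.04.

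Des, the intermediate filament desmin (chr1:75336936-75345223, 9 exons), was at 6.63, 5.35 and 10.8 CPM with PaPE-1 and at 4.31, 4.63 and 4.80 CPM with vehicle. Its log2 fold change of 0.72 (SE 0.24, edgeR adjusted p = 0.132) leaned on WP24, and was 0.39 (edgeR adjusted p = 0.350) without that library. An exon of Des overlaps Gm15179 on the opposite strand. Pdgfrb, the PDGF receptor β of stellate cells and pericytes (chr18:61178194-61218139, 24 exons), was at 13.1, 13.1 and 9.25 CPM with PaPE-1 and at 13.5, 15.98 and 18.03 CPM with vehicle. The groups nearly touched, and the log2 fold change was -0.42 (SE 0.18, edgeR adjusted p = 0.202). Tgfb1, the TGF-β1 ligand (chr7:25386406-25404503, 7 exons), had overlapping groups at 9.67 to 10.3 CPM with PaPE-1 and 8.33 to 11.7 CPM with vehicle, and a log2 fold change of 0.02 (95% interval -0.37 to 0.41).

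Leaving out 1 DIO library at a time kept all of these directions for Acta2, Tagln and Lum. Without WV9, the vehicle library highest in Tagln, Lum and Pdgfrb, the members lower at an unadjusted p under 0.05 were 2, Acta2 and Lum, and 1 was higher, Des. Without WP24, 3 were lower, Acta2, Tagln and Lum, and 1 was higher, Ecm1.

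Markers of other cells were read beside these values. Of the 10 hepatocyte markers, 5 were higher with PaPE-1 at an unadjusted p under 0.05, against 11.4% of all genes, and 0 lower, against 9.68%. By direction, 7 of the 10 lay above 0 and 3 below. Their summed level was 117991 to 143379 CPM in PaPE-1 and 92104 to 101902 CPM in vehicle. The 6 smooth muscle markers summed to 1.99 to 2.30 CPM in the PaPE-1 libraries. In vehicle they summed to 2.15 (WV7), 6.24 (WV8) and 2.23 CPM (WV9), so WV8 alone lay above the PaPE-1 range. In each PaPE-1 library 2 of those 6 were at 0, and in the vehicle libraries 0 to 1. Only 1 of the 6, Myh11, had enough reads to be tested. The 7 portal fibroblast markers summed to 11.5 to 19.04 CPM and 11.8 to 26.2 CPM, with 0 to 1 of them at 0 in both groups. The 12 liver endothelial markers summed to 360 to 398 CPM and 362 to 402 CPM. The part of these cells in the lower Acta2, Tagln and Lum was not tested.

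With E2 in the same DIO livers, 9 of the 10 members overlapped vehicle. Des was the member apart, at 4.88, 5.97 and 5.45 CPM with E2, all above vehicle, with a log2 fold change of 0.25 (95% interval -0.28 to 0.77). Groups were apart for 4.54% of all genes in the higher direction and for 5.52% in the lower. No member passed the adjusted threshold with edgeR, DESeq2 or limma voom (0% of genes called higher and 0% lower by edgeR). Before adjustment, at p under 0.05, 1 member was lower, Timp1, against 2.5% of all genes. With DESeq2, limma voom, only the compared groups or a minimum of 10 counts in every library, 0 were lower, and with single libraries left out 0 to 2 were. With no filter on low counts or the gene length trend removed, 2 were lower, Timp1 and Tagln. Timp1 was at 0.136, 0.525 and 0.308 CPM with E2, with 2 libraries inside the vehicle range, and rested on 3 to 11 reads. Its log2 fold change was -1.23 (SE 0.55, edgeR adjusted p = 0.937). Acta2 was at 4.61, 2.96 and 1.59 CPM with E2 and overlapped vehicle, with a log2 fold change of -0.31 (95% interval -1.15 to 0.52). Lum, at 11.7, 7.59 and 9.61 CPM, overlapped vehicle too, with a log2 fold change of -0.11 (95% interval -0.57 to 0.35). Tagln was at 6.74, 11.02 and 5.35 CPM, with 1 library inside the vehicle range and a log2 fold change of -0.46 (95% interval -0.997 to 0.07). For Lrat, Reln, Ecm1, Des, Pdgfrb and Tgfb1 the log2 fold changes with E2 lay between -0.36 for Pdgfrb and 0.25 for Des. Beside these, 9 of the 12 Kupffer cell and macrophage markers were higher with E2 before adjustment, against 2.72% of all genes, and 0 lower, at a summed 785 to 1027 CPM against 516 to 689 CPM with vehicle. Their part in the values of the members was not tested.

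PaPE-1 and E2 were given at different doses, so their direct comparison describes the regimens used and not equal exposure. The vehicle libraries do not enter this contrast, but the spread is shared. By edgeR 0 members were called, where 0.0216% of genes were called higher and 0.0144% lower. DESeq2 called 1 member, Lum (adjusted p = 0.0368), among 238 of 13884 genes, and limma voom called 0 members. Before adjustment, at p under 0.05, 4 members were lower with PaPE-1 than with E2, against 8.62% of all genes, and 0 were higher, against 8.41%. They were Lum at -0.85 (SE 0.22), Acta2 at -1.31 (SE 0.43), Lrat at -0.43 (SE 0.15) and Reln at -0.38 (SE 0.15) on the log2 scale, with edgeR adjusted p from 0.175 to 0.244. Lrat, Reln and Lum each had all 3 PaPE-1 libraries under all 3 E2 libraries, where 8.27% of all genes did, while Acta2 overlapped at WP11 and WE18. Ecm1 was apart the other way, at 146 to 168 CPM with PaPE-1 and 130 to 145 CPM with E2, as were 9.9% of all genes.

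The count of 4 members fell to 2 without WE3 (Lrat and Lum), without WE18 (Acta2 and Lum) and with the gene length trend removed (Acta2 and Lum), where Lrat was at -0.29 and Reln at -0.13. Without WP12, Des was higher before adjustment, at 0.68. Markers of other cells also differed between PaPE-1 and E2 at an unadjusted p under 0.05, where 8.41% of all genes were higher and 8.62% lower. Of the 12 liver endothelial markers 4 were lower with PaPE-1, among them Cdh5, VE-cadherin, at -0.86 (SE 0.20), and they summed to 360 to 398 CPM against 386 to 508 CPM with E2. Of the 12 Kupffer cell and macrophage markers 4 were lower, with a median of -0.38, at a summed 493 to 764 CPM against 785 to 1027 CPM. Of the 10 hepatocyte markers 3 were higher, at a summed 117991 to 143379 CPM against 103837 to 132456 CPM. Their part in the values of the members was not tested.

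**Figure D2:**
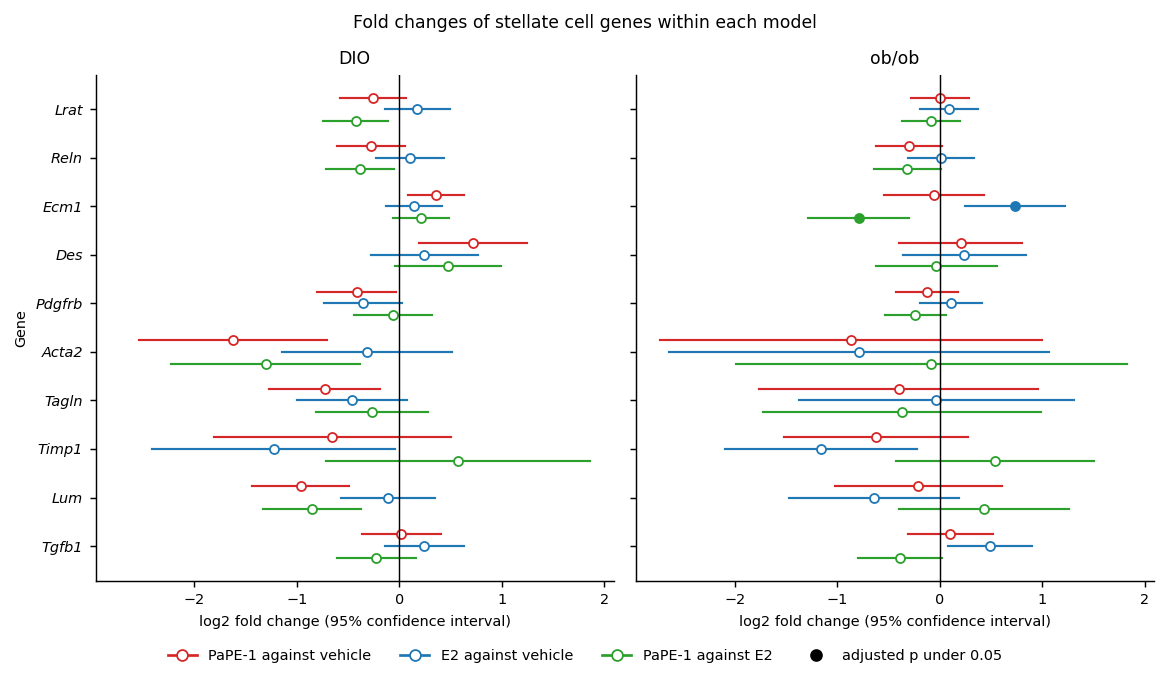
The log2 fold change of each gene (x axis) is drawn for 3 comparisons within DIO (left) and ob/ob (right), with points as estimates of the edgeR fit, lines as 95% confidence intervals and filled points where the adjusted p was under 0.05. Ecm1 in the ob/ob comparisons with E2 has the filled points, and Acta2 has the widest intervals in ob/ob.

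In ob/ob livers, 1 vehicle library, L8, stood apart in the activation genes. L8 was also the library with the fewest counted reads, 10470665. It had 20.2 CPM of Acta2 against 5.38 and 3.78 CPM in the other vehicle libraries, and 28.0 CPM of Tagln against 8.11 and 10.6 CPM. It was also the vehicle library highest in Timp1, at 4.63 CPM against 1.36 and 1.65 CPM, and in Lum, at 22.9 CPM against 13.04 and 10.6 CPM. Its Ecm1 was the lowest of the ob/ob libraries at 101 CPM, and its Reln was the lowest at 33.7 CPM. Beside these, the summed level of the 8 cholangiocyte markers in L8 was 552 CPM, against 221 and 126 CPM in the other vehicle libraries and 124 to 196 CPM with E2 or PaPE-1. Most of this was Spp1, osteopontin, at 529 CPM, a gene that is also in the matrix list. The 6 smooth muscle markers summed to 4.63 CPM in L8, against 2.27 and 3.07 CPM in the other vehicle libraries. With E2 or PaPE-1 they summed to 1.71 to 4.47 CPM. The 7 portal fibroblast markers summed to 31.7 CPM in L8, against 14.9 and 13.9 CPM in the other vehicle libraries. With E2 or PaPE-1 their sum was 11.3 to 32.3 CPM. The part of these cells in the levels of L8 was not tested.

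PaPE-1 in ob/ob livers was not separable from vehicle at any member. The count of members called was 0 with edgeR, DESeq2 and limma voom, where edgeR called 0% of the 13433 genes higher and 0% lower. Before adjustment, at p under 0.05, it was also 0 in both directions, against 0.998% and 1.65% of all genes. Acta2 was at 2.01, 10.01 and 3.92 CPM with PaPE-1. The high value was that of L6, whose 6 smooth muscle markers summed to 4.47 CPM, against 2.41 in L5 and 3.63 in L16. The log2 fold change of Acta2 was -0.87 (95% interval -2.73 to 0.9999), and without L8 it turned to 0.20 (SE 0.58). Tagln, at 7.04, 19.9 and 8.25 CPM, had a log2 fold change of -0.40 (95% interval -1.76 to 0.96), which turned to 0.31 without L8. Timp1 (-0.62) and Lum (-0.21) turned in the same way, to 0.09 and 0.17. Reln, at 39.1, 36.6 and 38.1 CPM against 56.3, 33.7 and 49.7 CPM, overlapped only at L8. Its log2 fold change was -0.30 (95% interval -0.62 to 0.03). Without L8 it was -0.48, under 0.05 before adjustment and at an edgeR adjusted p of 0.9996. Lrat had the narrowest interval around no difference, -0.28 to 0.29.

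With E2 in ob/ob livers, Ecm1 rose, at 225, 274 and 245 CPM against 155, 101 and 191 CPM with vehicle. All E2 libraries were above all vehicle libraries, as for 20.7% of all genes. The log2 fold change was 0.73 (SE 0.22, edgeR adjusted p = 0.0379), which is 1.66 times the vehicle level. By this rule 9.81% of all genes were called higher and 12.3% lower, so 1 of 10 members called higher is near the share of all genes. The call was lost without L8 (log2 fold change 0.52, adjusted p = 0.0720), without L3 (adjusted p = 0.0780), and without any of the E2 libraries L1 (0.0566), L12 (0.143) and L19 (0.0894). PaPE-1 against E2 gave the other called value of Ecm1, lower by PaPE-1 at a log2 fold change of -0.79 (SE 0.22, edgeR adjusted p = 0.0352). There 10% of all genes were called higher and 7.45% lower. This second call shares the E2 libraries with the first, and it too was lost without L1, L12 or L19, or without the PaPE-1 libraries L6 (adjusted p = 0.0574) and L16 (0.115).

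Of the other members, Tgfb1 was higher with E2 at an unadjusted p, at 16.2, 24.7 and 24.8 CPM against 15.2, 18.1 and 13.7 CPM. The groups overlapped at L1 and the log2 fold change was 0.49 (SE 0.19, edgeR adjusted p = 0.0781). Timp1 was at 1.25, 0.919 and 1.14 CPM with E2, under all 3 vehicle libraries as for 20.8% of all genes, at -1.16 on the log2 scale (SE 0.44, edgeR adjusted p = 0.0713). Without L8 this was -0.45 (adjusted p = 0.403). Before adjustment, 2 members were higher at p under 0.05 and 1 lower, against 17.8% and 19.9% of all genes. Acta2 (log2 fold change -0.79, SE 0.78), Tagln (-0.03, SE 0.57) and Lum (-0.64, SE 0.37) did not pass either threshold, and Acta2 and Tagln were at 0.28 and 0.67 without L8. Lrat (0.09), Reln (0.02), Des (0.24) and Pdgfrb (0.11) differed from vehicle by less than their SE.

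Markers of other cells moved with E2 in ob/ob, where 9.81% of all genes were called higher and 12.3% lower. Of the 12 liver endothelial markers, 11 were called higher, and they summed to 441 to 570 CPM with E2 and 255 to 286 CPM with vehicle. Of the 12 Kupffer cell and macrophage markers, 7 were called higher, and of the 10 neutrophil markers 8 were, from a summed 6.49 to 8.73 CPM with vehicle to 95.2 to 366 CPM. Of the 10 hepatocyte markers, 4 were called higher and 1 lower, at a summed 144590 to 160409 CPM against 87504.5 to 116058 CPM. Their part in the level of Ecm1 and Tgfb1 was not tested.

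Whether an effect differed between the models was tested in a fit of all 18 libraries, taking the effect in ob/ob minus that in DIO, each against its own vehicle. By adjusted p, 0.0141% of 14171 genes were called for E2 and 0% for PaPE-1, and 0 members were among them in any fit run. For E2, the difference in Ecm1 was 0.57 on the log2 scale (SE 0.26, edgeR adjusted p = 0.271), and it was the only member under 0.05 before adjustment. Without L8 it was 0.37 (SE 0.22) and no longer under 0.05, while Tagln went from 0.41 to 1.14 (SE 0.50, edgeR adjusted p = 0.313) and was under 0.05 before adjustment. For PaPE-1, the difference was 0.73 in Acta2 (95% interval -1.35 to 2.82) and 0.74 in Lum (95% interval -0.17 to 1.64), and no member had an unadjusted p under 0.05. Without L8 these differences became 1.83 for Acta2 and 1.14 for Lum, and that of Ecm1 went from -0.42 to -0.62. All 3 were then under 0.05 before adjustment, at edgeR adjusted p of 0.471, 0.384 and 0.392. The lower Acta2 and Lum of DIO mice on PaPE-1 were therefore not shown to differ from ob/ob. Levels were not tested between the models, which differ in genotype and diet and were normalized in separate tables.

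The contrast of quiescence markers with activation genes was described for each library as the mean log2 CPM of Lrat, Reln and Ecm1 minus that of Acta2, Tagln, Timp1 and Lum. In DIO this difference was 4.41, 3.57 and 3.38 with vehicle, 4.31, 4.71 and 4.86 with PaPE-1, and 4.35, 4.07 and 4.80 with E2. The group means were 3.79 ± 0.55, 4.63 ± 0.29 and 4.41 ± 0.37 (SD, n = 3). The PaPE-1 and vehicle groups overlapped through the vehicle library WV7. When CPM were summed over genes before the log they did not overlap, at 2.69 to 3.43 with vehicle and 3.74 to 4.33 with PaPE-1. In that sum Ecm1 was the largest of the quiescence markers, at 146 to 168 CPM with PaPE-1 and 120 to 133 CPM with vehicle. Lrat and Reln leaned the other way, at log2 fold changes of -0.25 and -0.28, with overlapping groups. By mean log2 CPM, the gap lay in the activation genes, with means of 2.09 ± 0.44 with vehicle and 1.19 ± 0.24 with PaPE-1. On that scale the quiescence markers did not add to it, at 5.87 ± 0.11 with vehicle and 5.82 ± 0.05 with PaPE-1.

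In ob/ob the difference was 3.69, 1.60 and 3.67 with vehicle, 3.99, 2.88 and 3.13 with PaPE-1, and 3.46, 3.92 and 3.89 with E2. The value of 1.60 was that of L8, and the groups overlapped in all pairs. The mean of PaPE-1 minus that of vehicle was 0.35, and -0.34 without L8. For E2 it was 0.77, and 0.08 without L8. In DIO, leaving out any 1 of the libraries kept PaPE-1 above vehicle, by 0.64 to 1.15.

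**Figure D3:**
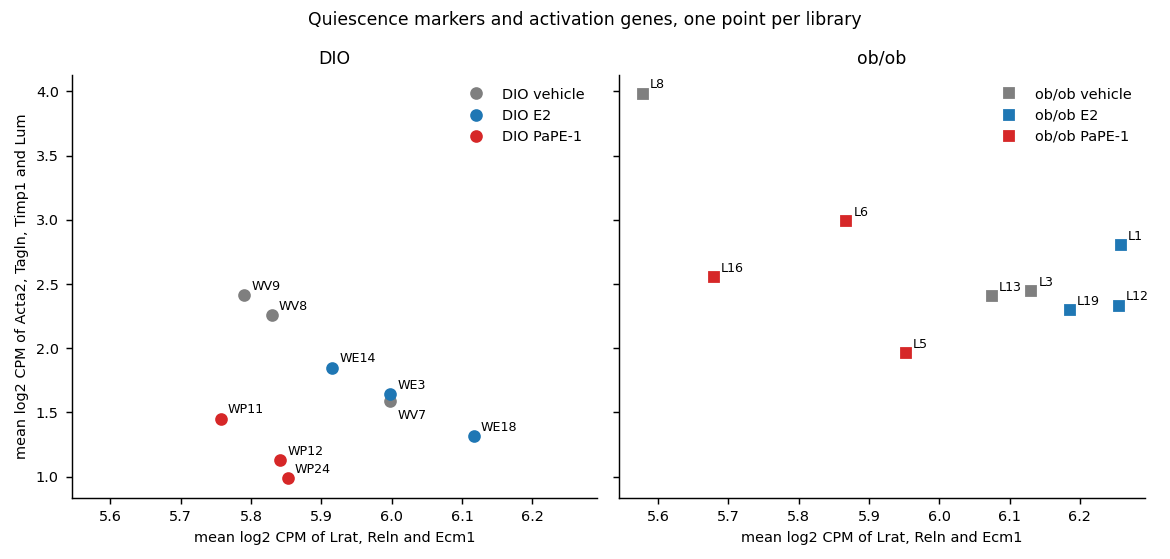
Each point is 1 library, placed by the mean log2 CPM of the 3 quiescence markers (x axis) and of the 4 activation genes (y axis), for DIO (left) and ob/ob (right). The DIO PaPE-1 libraries have activation values of 0.99 to 1.45, all below those of vehicle, and the ob/ob vehicle library L8 sits alone at 3.98.

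Other genes of the same programme were counted by list, with the median of each list beside that of all genes. In DIO with PaPE-1, 12 of 24 tested genes of the other myofibroblast and matrix list were lower at an unadjusted p under 0.05, against 9.68% of all genes, and 0 were higher. A total of 22 lay below 0, and the median log2 fold change was -0.43, where that of all genes was -0.03. None passed the adjusted threshold. The lowest p-values were those of Fbn1, the microfibril protein fibrillin 1 (-0.75, SE 0.19), the fibrillar collagens Col5a2 (-1.29, SE 0.33) and Col3a1 (-1.16, SE 0.31), and Postn, periostin (-0.65, SE 0.19). With E2 in DIO, against the same vehicle libraries, 7 of 24 were lower, against 2.5% of all genes, and 0 higher. A total of 21 lay below 0, with a median of -0.35, where that of all genes was 0.01. Col3a1 and Postn were at -0.98 (SE 0.30) and -0.79 (SE 0.19) with E2. Between PaPE-1 and E2 in DIO, 1 of 24 was lower with PaPE-1, against 8.62% of all genes, and 0 higher, with a median of -0.08. Vldlr, a receptor of reelin, was lower before adjustment with E2, at -0.52 (SE 0.16).

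The other stellate identity genes had no such lean with PaPE-1 in DIO, with 14 of 25 above 0 and a median of 0.01. At an unadjusted p under 0.05, 2 were higher, among them Angptl6 (0.46, SE 0.15), and 0 were lower. In the TGF-β pathway 6 of 24 genes were lower, against 9.68% of all genes, and 0 higher, with a median of -0.22. The lowest p-values there were those of Itgb8, an integrin subunit that releases active TGF-β (-1.89, SE 0.46), and Thbs1, thrombospondin 1 (-1.41, SE 0.47), both at under 3 CPM. Skil, a repressor of Smad transcription, was at -0.72 (SE 0.25) and Smad2, which carries the TGF-β signal to the nucleus, at -0.36 (SE 0.13). Among 7 small leucine-rich proteoglycans, the family of Lum, 1 was lower, Dcn (decorin), at -0.30 (SE 0.12), and the list's median was -0.30.

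Of 10 smooth muscle contractile genes tested in DIO with PaPE-1, 2 were lower, Cald1 (-0.60, SE 0.17) and Flna (-0.45, SE 0.17), and 0 higher. The median was -0.25, with 6 genes below 0 and 4 above. Groups were apart for 2 genes in the lower direction and for 2 in the higher, against 15.8% and 16.4% of all genes. Of all genes 9.68% were lower, beside 2 of these 10, 1 of the 7 proteoglycans and 2 of the 12 portal fibroblast genes. Lists of this size are too small to tell such counts from that share. Myh11, the smooth muscle myosin, was at -0.94 (SE 0.48, edgeR adjusted p = 0.284). Of 12 portal fibroblast genes 2 were lower, Fbln2 (-1.003, SE 0.29) and Eln, elastin (-0.95, SE 0.33), with a median of -0.09. None of the 6 PDGF genes and not the reelin receptor Vldlr (0.05, SE 0.16) passed an unadjusted p of 0.05.

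In ob/ob with PaPE-1, the matrix list had 23 of 24 genes below 0, a median of -0.38 against -0.001 for all genes, and 2 genes lower at an unadjusted p under 0.05 (1.65% of all genes were), Col5a1 (-0.42, SE 0.16) and Timp2 (-0.34, SE 0.16). These values share the vehicle library L8, which held 99.7 CPM of Col1a1 where the other ob/ob libraries held 25.3 to 50.4 CPM. With E2 in ob/ob, the TGF-β pathway had 5 genes called higher and 4 called lower of 24, against 9.81% and 12.3% of all genes. Eng, an endothelial co-receptor that is also in the endothelial list, rose by 1.04 (SE 0.14, edgeR adjusted p = 0.00125), while the receptors Tgfbr2 (-1.17, SE 0.17) and Tgfbr1 (-0.79, SE 0.16) and the integrin subunit Itgav (-0.76, SE 0.15) fell. Of 24 other stellate identity genes 2 were called higher, Tcf21 (0.63, SE 0.20) and Cxcl12 (0.41, SE 0.13), against 9.81% of all genes. In the lower direction 1 was called, Steap4 (-0.60, SE 0.13), against 12.3%. The matrix list had 1 of 24 genes called higher, Islr (0.71, SE 0.22), and 0 called lower, against the same shares, with a median of -0.29. Vldlr, a receptor of reelin, was called lower at -0.75 (SE 0.22), while Reln itself was at 0.02.

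**Figure D4:**
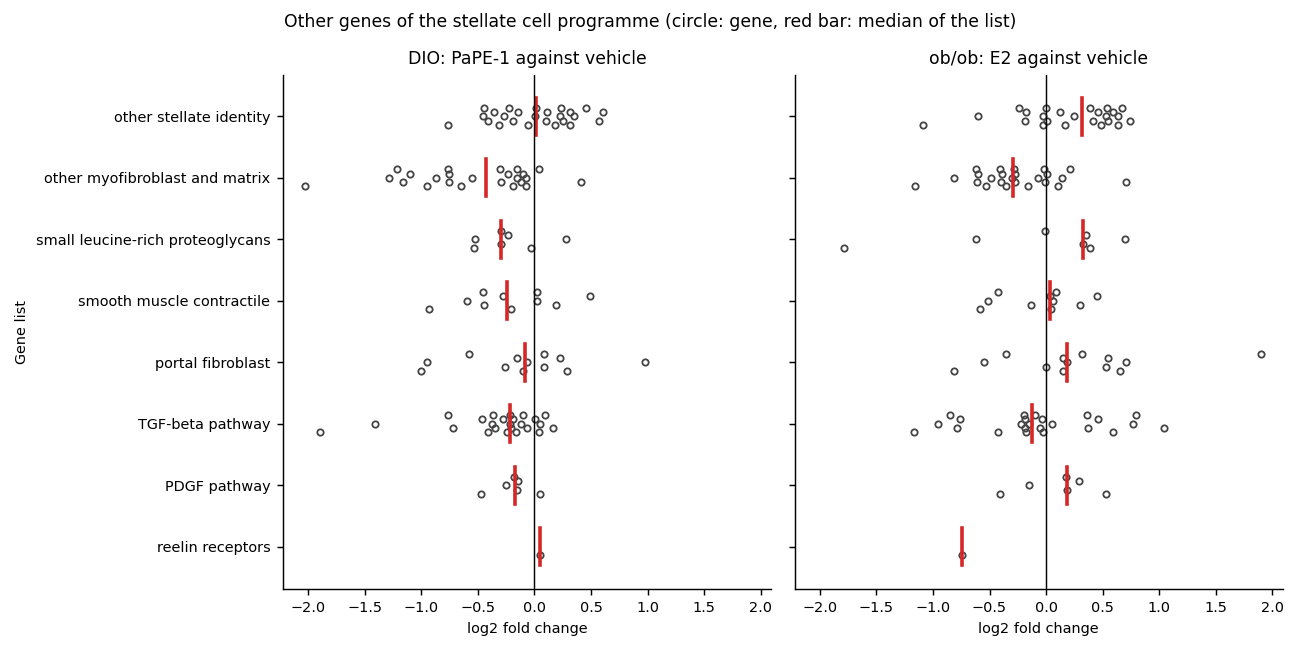
Circles are tested genes of 8 lists, placed by their log2 fold change (x axis), and red bars are list medians, for PaPE-1 against vehicle in DIO (left) and E2 against vehicle in ob/ob (right). The matrix list has its median at -0.43 on the left and -0.29 on the right, and the other stellate identity list at 0.01 and 0.32.

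The genes most like Lrat, Acta2 and Lum over the 18 libraries were found by Pearson's r of log2 CPM after each model's mean was taken off, among 12427 genes. They were picked as the most alike, so the values are a description. For Acta2 they were Nbea (r = 0.89, Spearman's rho 0.82), Fstl1 (0.84), Col5a2 (0.81), Tagln (0.80) and Gm36185 (0.79), and r was 0.66 to 0.88 without L8 and L5, the libraries farthest out in Acta2. For Lum they were Tmx3 (0.87), Col5a2 (0.86), Septin11 (0.86), Rp2 (0.86) and Bmt2 (0.84), at 0.79 to 0.83 without L8 and WP12. Col5a2 was thus among the 5 most alike of both. For Lrat they were Tmem33 (0.80), Abcb10 (0.79), Svil (0.78), Pcdh7 (0.77) and Fbxo4 (0.76), at 0.60 to 0.81 without WE18 and WP12, and of these Pcdh7 was in the list of stellate identity genes. The libraries share their treatment groups and depth, which the r values include.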

How the data were processed

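Liver RNA was made into stranded poly-A libraries and read on a HiSeq2000, from both ends per the labels, while the deposited columns name the first read. Per the labels and file headers, the authors aligned reads with STAR 2.7.6a to GRCm39 and deposited raw counts per RefSeq gene from featureCounts 2.0.0 with reverse strand counting, in a table for each model. The study's methods name another aligner and counter, so the headers were followed. The labels give 3 biological replicates per group, of which 2 were to be sequenced, yet 3 libraries per group were present and all 18 were used. Libraries of a group differed by more than sampling noise (chi-square per degree of freedom 7.48 to 104 over 18 pairs).

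Genes were kept by filterByExpr, scaled by TMM and tested in edgeR 4.0.16 (R 4.3.3) with robust quasi-likelihood fits of 9 libraries per model. The interaction was fitted on all 18. P-values were adjusted by Benjamini-Hochberg over all genes tested, at 0.05. The p-values quoted are two-sided, and an exact test of 3 against 3 could not go below 0.1. DESeq2 1.42.0 and limma 3.58.1 were alternatives. A prior count of 2 was added for log2 CPM. The code was tested on simulated data.

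Members and gene lists were chosen with earlier results of these data known. All 10 members were tested in each comparison. They were all named for PaPE-1 against vehicle in DIO and for E2 against vehicle in both models, and in part elsewhere. Also named were up to 4 genes of a list by smallest adjusted p, the 5 genes most like Lrat, Acta2 or Lum, and counts of 5 or fewer. Col1a1 and Spp1 in L8 were chosen after their values were seen.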

Additional observations from a re-analysis of the deposited data

How the results depend on the processing

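Timp1 (3 to 53 reads per library) and Acta2 in DIO (12 to 118 reads) had few reads, and with 3 libraries per group single libraries decide several values. Of 80 values of members over all comparisons, 2 passed the adjusted threshold, both of Ecm1 in ob/ob, and 0 called values changed sign under any of the alternatives run. Among 1454 refitted values, 19 gained and 14 lost a call, and 32 of the 80 values, 27 of them smaller than their SE, changed sign in at least 1 refit. The cause was not tested.

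For PaPE-1 against vehicle in DIO, the members called went from 0 to 2 with DESeq2, which called 752 of 13884 genes. With no filter on low counts they were 2 as well, among 385 of 22841 genes called. With only the compared groups they were 3, among 773 of 13604 genes, and with a library left out 0 to 2. The libraries whose absence gave calls were those of E2. They were WE3 (Acta2 and Lum, among 611 of 14113 genes) and WE14 (Lum, among 193 of 14124). For PaPE-1 against E2 in DIO the count went from 0 to 1 with DESeq2, among 238 of 13884 genes, and was 0 to 1 without single libraries. The 1 was Lum without WE14 (adjusted p = 0.0305), where 796 of 14124 genes were called. For E2 against vehicle in ob/ob it was 2 with no filter (Timp1 and Tgfb1 in place of Ecm1), among 3047 of 22081 genes called. It was 0 to 1 without single libraries. With the length trend removed it was 1, Timp1 in place of Ecm1, among 2398 of 13433 genes. For PaPE-1 against E2 in ob/ob it was 0 with no filter, where 2428 of 22081 genes were called, and 0 to 1 without single libraries. There it was 1 with the length trend removed, Reln in place of Ecm1, among 1911 of 13433 genes. Tgfb1 was called in both ob/ob comparisons with E2 when L1 was left out (adjusted p = 0.0181 and 0.0428). In those fits 3328 and 2844 of 13694 genes were called. DESeq2 size factors in edgeR, limma voom and a minimum of 10 counts in every library changed no count of members called. Timp1 could not be tested in DIO at that minimum.

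The quiescence minus activation difference of PaPE-1 against E2 in DIO was 0.22, and 0.62 when CPM were summed over genes before the log. The difference for PaPE-1 against vehicle in ob/ob ran from -0.34 to 0.70 over left-out libraries, turning without L8.

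No paired analysis was possible because the library numbers in the titles differ between the groups.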
